A study of Dunaliella salina with 9 samples.

Results

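A module of 313 transcript clusters of Dunaliella salina was examined whose level at moderate light was close to that at low light and whose level at strong light was at most 1/3 of either. They are 313 of 76875 clusters listed, 313 of 34377 that entered the expression test, and 3.12% of the 10023 clusters that were steady between low and moderate light. Dunaliella salina is a unicellular green alga without a cell wall that lives in brines and is known for storing glycerol and carotenoids. RNA was sequenced from 3 libraries each of cells kept at 150 µmol photons m⁻² s⁻¹ (LL), cells moved in a single step to 600 (ML) and cells moved in a single step to 1500 (HL). All 3 groups came from cultures grown under cold white fluorescent lamps with daily light and dark periods, and were put into fresh medium in mid-exponential growth before the treatment. The labels name no strain or genotype. The labels give no time between the shift and harvest. No label says that the 3 libraries of a group were separate cultures, so their spread may be technical.

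When a green alga meets light beyond what its photosynthesis can use, it is known to shrink its light-harvesting antennae, dissipate excitation as heat, remove reactive oxygen and repair photosystem II, whose core protein is damaged by light. Carotenoids, which accumulate in Dunaliella under such light, screen and quench excess energy. Which functions the members serve cannot be read from these files, where clusters are numbered and not paired with gene names. A RefSeq table for the Dunsal1 v. 2 assembly matched 0 of 76875 identifiers. No marker of the organism or of a light response could be checked for the same reason, and no sequence is shown. The clusters are described by level, length, response and the form of their counts, and only 2 are given by identifier.

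Members were chosen by their measured levels. A level is given in CPM, the cluster's estimated count divided by its library's total and scaled so that every library has the same total, and a group mean is taken over 3 libraries. A member had LL and ML means of at least 5 CPM that lay within 1.5-fold of each other, an HL mean of at most 1/3 of each, and its highest HL library below all 6 libraries of the other groups. The loss in HL, the steadiness between LL and ML and the separation of the libraries are thus properties of the choice, given here as values and without a test. Of the 10023 clusters that were steady by the LL and ML conditions, 316 had an HL mean low enough, and 3 of these were set aside because an HL library reached a library of another group.

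The members held 1.30%, 1.33% and 1.33% of all counts in the LL libraries, 1.43%, 1.43% and 1.40% in the ML libraries and 0.356%, 0.338% and 0.363% in the HL libraries. The mean shares were 1.32% ± 0.022 for LL, 1.42% ± 0.016 for ML and 0.353% ± 0.013 for HL (SD over 3 libraries). Each HL library thus lay far below every other library, while LL and ML lay close together. The median member stood at 12.46, 12.1 and 11.1 CPM in the LL libraries, at 14.0, 13.8 and 12.8 CPM in the ML libraries and at 3.11, 2.80 and 2.98 CPM in the HL libraries. As whole cultures were sequenced, a lower level in every cell and a smaller share of cells holding the transcript cannot be told apart.

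**Figure D1:**
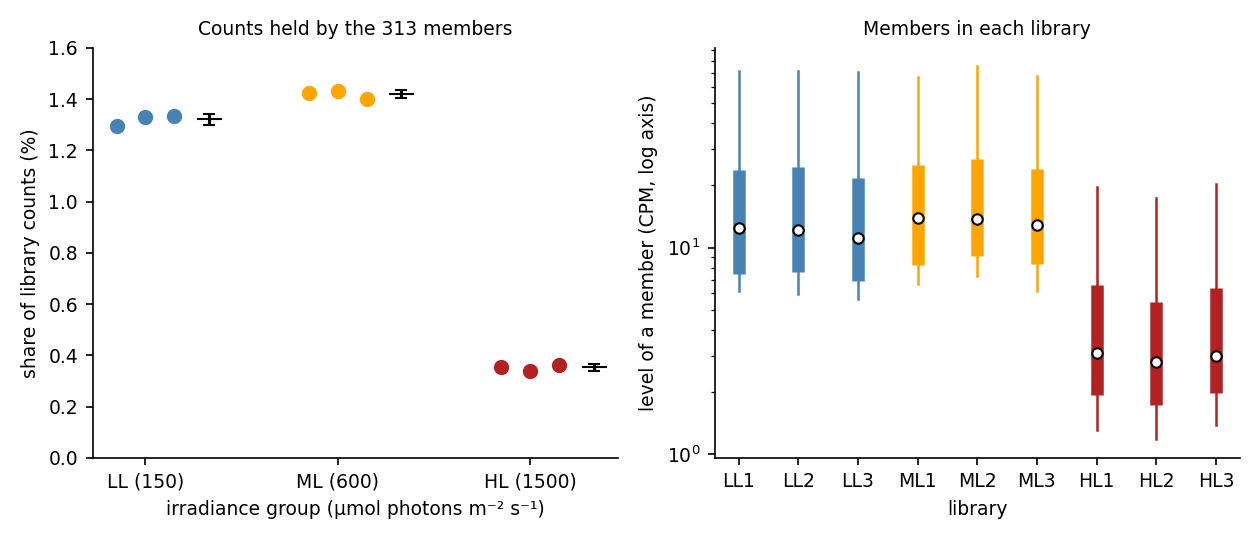
Left, the share of each library's counts (%) held by the 313 members, with points for libraries 1 to 3 from left to right and the mean ± SD beside them. Right, the level of the members in each library (CPM, log axis), with the median as a circle, the middle 50% as a thick bar and the 10th to 90th percentiles as a line; the 3 HL libraries have medians of 2.80 to 3.11 CPM, below the 11.1 to 14.0 CPM of the 6 other libraries.

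Most members were modestly expressed transcripts that kept between 1/4 and 1/3 of their level in HL. The remaining level in HL, as a percentage of the lower of the LL and ML means, had a median of 28.7%, with 23.8% and 31.5% at the quartiles. It lay between 1/4 and 1/3 for 219 members, between 1/8 and 1/4 for 81, and above 0 but at most 1/8 for 10, while 3 members had no count in any HL library. LL means ran from 5.01 to 1927 CPM with a median of 11.8 CPM, and a typical member was covered by a mean of 216 counts per library in LL, 261 in ML and 57.1 in HL. Per length, the median member stood at 8.03 FPKM in LL, 9.49 FPKM in ML and 2.06 FPKM in HL (FPKM, fragments per kilobase of length at a common depth).

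No gap separated the members from the other steady clusters. Over the 10023 steady clusters the HL mean was a median 97.0% of the lower of the LL and ML means, with 47.3% at the 10th percentile. The last members inside the 3-fold limit stood at 33.33% and 33.33%, and the first clusters outside it at 33.40% and 33.42%. As many as 61 clusters that met the other conditions lay between 1/3 and 0.35, while 118 members lay between 0.3 and 1/3. At the floor of 5 CPM, the lowest members had LL means of 5.01 and 5.02 CPM, and the nearest clusters outside had LL means of 4.9995 and 4.993 CPM. At the limit of 1.5-fold between LL and ML, the outermost members differed 1.496-fold and 1.493-fold, and the nearest clusters outside 1.504-fold and 1.507-fold. For the separation of libraries, the narrowest members had a highest HL library of 4.24 and 4.63 CPM against a lowest other library of 4.31 and 4.89 CPM. The 3 clusters set aside had a highest HL library of 2.88, 5.12 and 2.99 CPM, against at least 1 other library at 0 CPM.

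**Figure D2:**
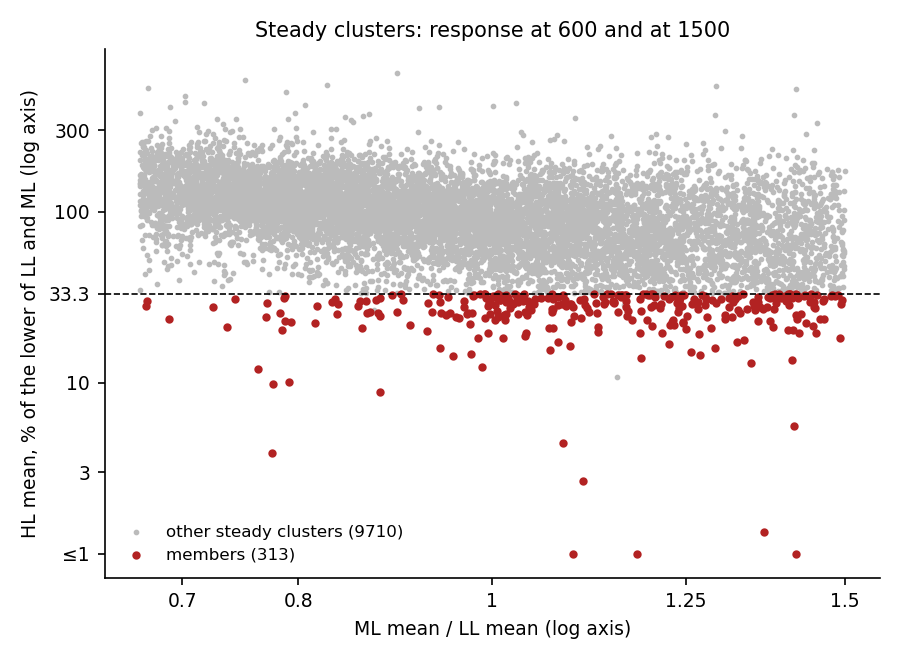
Each point is one of the 10023 steady clusters, placed by its ML mean over its LL mean (log axis) and by its HL mean as a percentage of the lower of those means (log axis); values at or below 1% are drawn at 1%. The 313 members fill the space under the dashed line at 33.3%, run on from the other clusters without a gap, and lie mostly at ML over LL above 1. The clusters set aside for overlapping libraries also lie under the line, in grey.

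The number of members depended on scaling. CPM divides by the library total, whereas TMM factors, which balance the bulk of the clusters, had a mean of 1.03 in LL, 1.06 in ML and 0.918 in HL, so that HL levels are read higher with them. With TMM-scaled CPM the same conditions gave 179 clusters, 171 of them members, and with RLE-scaled CPM 167, of which 160 were members. The 142 members lost with TMM had remaining levels of 21.4% to 33.3% in plain CPM, with a median of 31.7%. The scaling also bears on the floor of 5 CPM and the 1.5-fold limit. How many of the 142 left by each condition was not counted. With TMM the remaining level over all 313 members had a median of 32.4% and a maximum of 38.5%. Scaling multiplies whole libraries and the rule had set a 3-fold loss, so these values are a description. The loss was smaller than 3-fold for many.

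In the model fitted across 34377 clusters, 308 of the 313 members were called lower in HL than in LL, where 22.4% of all clusters were called lower. For HL against ML, 308 were called lower, where 29.9% of all clusters were. They are calls of edgeR's quasi-likelihood test with p-values adjusted by Benjamini-Hochberg and a threshold of 0.05, and since the rule used both contrasts nothing is read from them. The median log2 fold change of members was −1.68 for HL against LL, beside 0.01 over all clusters tested, and −1.86 for HL against ML, beside −0.07 over all. All 313 members passed the filter on low counts, and the smallest losses were log2 fold changes of −1.41 against LL and −1.38 against ML. Scaling by library totals alone moved the median over all clusters to −0.15 for HL against LL and to −0.28 for HL against ML. It turned the calls over all clusters to 5524 higher and 9795 lower for HL against LL, beside 7608 higher and 7709 lower with TMM. For HL against ML it gave 7860 higher and 12238 lower, beside 9935 higher and 10284 lower.

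The same 5 members missed the call in both contrasts, and their HL libraries were spread widely. Their LL means were 6.10 to 11.5 CPM, and all 5 held non-whole counts in some library. The member with the highest LL mean among them had 3.66, 3.87 and 0 CPM in the HL libraries, against 11.7, 12.54 and 10.4 CPM in the LL libraries. In a second of these members the values were 2.66, 0 and 0 CPM in HL, against 7.43, 4.95 and 6.16 CPM in LL. For both, every HL library lay below every LL library, with at least 1 HL library at 0.

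The member with the most counts was Cluster-5009.33947, with an implied length of 2748 bases. All lengths given here are implied by count and FPKM, and may differ from the full length of a cluster. It had 1928, 2014 and 1840 CPM in the LL libraries, 1818, 1842 and 1833 CPM in the ML libraries and 577, 553 and 611 CPM in the HL libraries. The LL and ML libraries interleaved, and all 3 HL libraries lay far below them. Its log2 fold change was −1.57 (SE 0.05) for HL against LL, −1.46 (SE 0.05) for HL against ML and −0.11 (SE 0.04) for ML against LL. This cluster alone supplied 14.6% ± 0.72 of the members' counts in LL, 12.9% ± 0.17 in ML and 16.4% ± 0.32 in HL (SD over 3 libraries). Its counts were non-whole in all 9 libraries. Estimated counts can be non-whole where reads are divided among similar sequences, and the level of such a cluster is uncertain by that division.

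The member that stood highest per length was the one with the fourth most counts. Its implied length was 452 bases, and its counts were whole in all 9 libraries. It reached 1271, 1387 and 1604 FPKM in the LL libraries, 1217, 1071 and 1174 FPKM in the ML libraries and 248, 260 and 262 FPKM in the HL libraries. All ML libraries lay below all LL libraries, and the HL libraries lay close together at a small part of either. In CPM its means were 638 ± 79.5 in LL, 520 ± 29.1 in ML and 117 ± 2.47 in HL (SD over 3 libraries), so that HL kept 22.5% of the ML level. Its log2 fold changes were −2.29 (SE 0.11) for HL against LL and −1.95 (SE 0.11) for HL against ML. For ML against LL it was −0.33 (SE 0.11), and this member was among those called lower in ML.

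The second and the third member by counts, of 947 and 893 bases, are set beside the first per length. The second had 597, 640 and 747 CPM in LL, 799, 725 and 790 CPM in ML and 182, 179 and 193 CPM in HL. The third had 546, 583 and 596 CPM in LL, 759, 713 and 731 CPM in ML and 182, 179 and 198 CPM in HL. In the third, every ML library lay above every LL library, whereas in the second LL and ML overlapped. Their mean levels per length in LL were 701 ± 80.1 and 646 ± 28.1 FPKM, beside 702 ± 32.6 FPKM for the first member by counts (SD over 3 libraries). In ML they were 815 ± 46.0 and 823 ± 29.4 FPKM, both above the 667 ± 3.42 FPKM of the first, and in HL 194 ± 8.28 and 208 ± 12.2 FPKM, beside 211 ± 10.6 FPKM.

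Among the next 6 by counts, the one with the largest loss was the ninth, a cluster of 2418 bases. It had 306, 361 and 366 CPM in LL, 445, 417 and 404 CPM in ML and 57.9, 55.2 and 61.9 CPM in HL, so that HL kept 16.9% of the LL level. The sixth, of 1182 bases, stood close to the limit on ML, with 354, 343 and 391.6 CPM in LL, 531, 527 and 551 CPM in ML and 115, 118 and 121 CPM in HL. Its ML mean was 1.48-fold its LL mean, and every ML library lay above every LL library. The other 4 had LL means of 348 to 454 CPM, ML means of 378 to 457 CPM and HL means of 101 to 115 CPM, with lengths of 1121 to 3371 bases. Together the 10 held 46.4% ± 1.91 of the members' counts in LL, 46.0% ± 1.47 in ML and 47.8% ± 0.93 in HL (SD over 3 libraries), and the other members held 0.707% ± 0.018 of all counts in LL, 0.766% ± 0.028 in ML and 0.184% ± 0.0086 in HL.

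**Figure D3:**
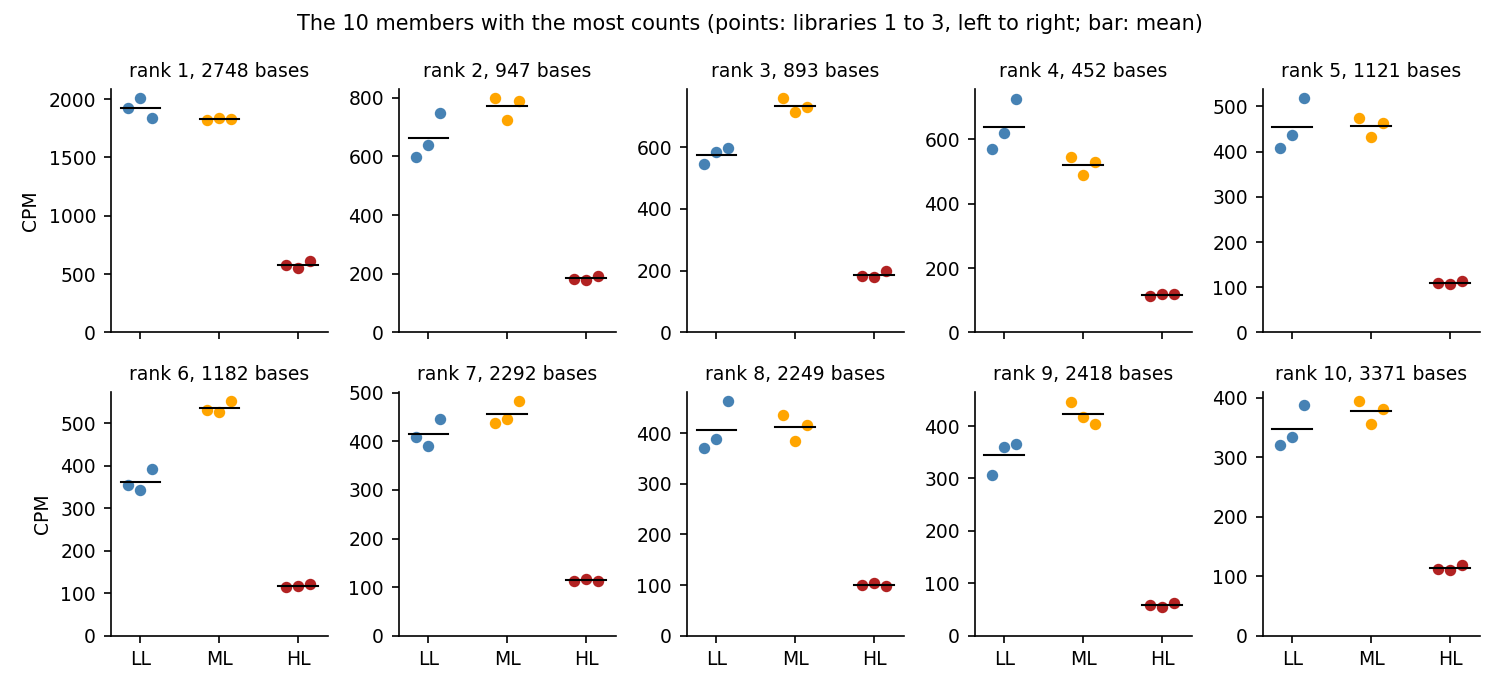
Levels (CPM, each axis starting at 0) of the 10 members with the most counts in LL and ML, ordered by rank, with points for libraries 1 to 3 from left to right and a bar at the group mean. In each panel all 3 HL points lie below all LL and ML points, and in 9 of 10 panels the third LL library is the highest LL point.

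The abundant members and the others did not follow the same libraries within a group. The third LL library was the highest of its group for 9 of the 10 members with the most counts and for 18 of the 21 members with a mean of LL and ML of at least 100 CPM. Among the 216 members under 20 CPM it was the highest for 28 and the lowest for 130. The 21 abundant members took 0.764%, 0.802% and 0.848% of the counts in the LL libraries, while the median of the other members was 11.95, 11.2 and 10.3 CPM in the same libraries. Steady clusters of at least 100 CPM had the third LL library highest in 43.1% of 1082 cases, and those under 20 CPM in 19.99% of 4957 cases. These differences within LL were small beside the loss in HL, where the abundant members took 0.220%, 0.215% and 0.227% of the counts.

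The deepest losses were all found in clusters with non-whole counts. Counts were whole in all 9 libraries (within 0.001 of an integer) for 127 of the 313 members, or 40.6%, and for 46.8% of the steady clusters. Among the 13 members that kept at most 1/8 of their level, none had whole counts throughout, and the 14 most reduced members all held non-whole counts. Of the 81 members between 1/8 and 1/4, 23 were whole (28.4%), and of the 219 between 1/4 and 1/3, 104 were (47.5%). The lowest remaining level of a whole-count member was 13.7%, at 11.3 CPM in LL, 15.9 CPM in ML and 1.54 CPM in HL. Whole-count members kept a median of 29.7% and the others 27.5%. What part the division of reads has in the deepest losses was not tested.

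**Figure D4:**
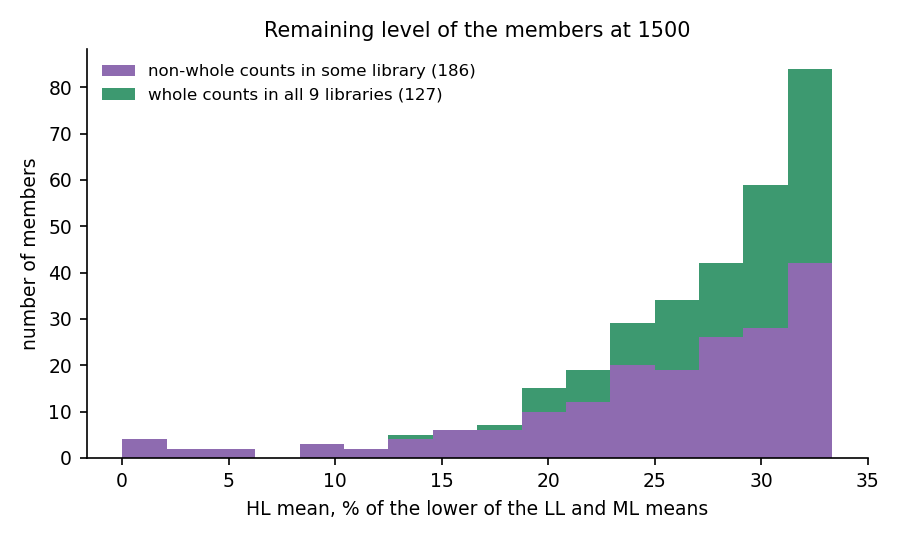
Number of members by remaining level, the HL mean as a percentage of the lower of the LL and ML means, with members whose counts were whole in all 9 libraries (127) stacked on those with non-whole counts (186). Both kinds pile up towards the 33.3% limit, and below 13.7% only members with non-whole counts are found.

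Cluster-5009.37177 had the lowest remaining level among members of at least 10 CPM, since it had no count in any HL library. Its implied length was 3692 bases. It had 84.6, 80.3 and 74.6 CPM in the LL libraries, 78.7, 100.4 and 104 CPM in the ML libraries and 0 CPM in each HL library. These are 1337 to 1518 counts per library in LL and 1533 to 1961 in ML. Set against a floor of 3 counts per HL library, or 0.156 CPM, it was at least 511-fold lower in HL than in LL and at least 604-fold lower than in ML, a bound on counting error only. Its counts were non-whole in all 6 libraries where it was found, and a failed estimate and a lost transcript cannot be told apart at 0.

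Another 2 members were at 0 in all HL libraries, at 14.7 ± 1.24 and 9.75 ± 2.64 CPM in LL and 20.8 ± 7.28 and 10.7 ± 6.92 CPM in ML (SD over 3 libraries). Of all clusters with at least 5 CPM in both LL and ML, 5 were at 0 throughout HL, and all 5 held non-whole counts. The reverse was as frequent, since 5 clusters of at least 5 CPM in HL were at 0 in all LL and ML libraries, again all with non-whole counts. A further 14 members were at 0 in some but not all HL libraries. All 17 members with an HL library at 0 held non-whole counts in some library, and 8 of them had at least 50 counts in another HL library.

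In some members with deep losses the HL libraries, though all below LL and ML, differed widely among themselves. The clearest case among members of at least 10 CPM, of 4085 bases, had 0.00, 17.5 and 0.08 CPM in HL, against 64.0, 65.3 and 67.9 CPM in ML and 77.9, 71.8 and 74.6 CPM in LL. The counts behind these HL values were 0.01, 343 and 1.49, a difference far beyond counting error. In HL the coefficient of variation exceeded 50% for 35 members, and all 35 held non-whole counts, whereas no whole-count member exceeded 46.2%. The median coefficient of variation of members was 10.3% over LL libraries, 10.04% over ML libraries and 15.1% over HL libraries, where counting error alone gives 6.81%, 6.19% and 13.2% at their depth. Over the steady clusters it was 6.97%, 6.63% and 6.34%, with 5.14%, 5.13% and 5.29% from counting error.

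The loss was also read in each library when it was left out of the choice. The libraries it was set against had made the choice. Libraries of a group may also be technical repeats, so the values describe only how alike the libraries were. When HL replicate 1 was left out and the members were chosen on the other 8 libraries, 348 clusters were found, and HL replicate 1 lay below all 6 LL and ML libraries for 340 of them (97.7%). The same held for 275 of 277 clusters with HL replicate 2 left out (99.3%) and for 324 of 330 with HL replicate 3 left out (98.2%). Among the steady clusters from which these were taken, the left-out HL library lay below all 6 in 44.7%, 46.8% and 45.3%. The level in the left-out library was a median 31.2%, 26.6% and 30.9% of the lower of the LL and ML means, and at most 1/3 for 216, 225 and 209 clusters. These are 62.1%, 81.2% and 63.3% of the clusters chosen, and the shares of the steady clusters were 3.42%, 4.45% and 3.41%. Leaving out an LL or ML library in the same way placed it above all HL libraries for 98.9% to 100% of the clusters chosen. Of the steady ones it was 48.4% to 60.2%. The steady clusters were not chosen for a low HL level, so the shares are not alike and no repeat of the loss is read from them.

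Between LL and ML, where the rule allowed up to 1.5-fold in either direction, the members leaned upward in ML. The ML mean was above the LL mean for 238 of 313 members (76.0%), and for 41.3% of the 10023 steady clusters. The median ML over LL was 1.14 for members and 0.944 for steady clusters. With TMM scaling 68.7% of members and 37.3% of steady clusters were higher in ML, with median log2 fold changes of 0.15 and −0.12. All 3 ML libraries lay above all 3 LL libraries for 105 members and below them for 22, while the libraries overlapped for 186. Of the 10023 steady clusters, ML lay above LL in this way for 2051 and below for 3581, and 4391 overlapped. Since the conditions of the rule include this contrast, the lean is a description.

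Of the 313 members, 55 were called higher in ML than in LL and 17 lower. Of the 34377 clusters tested, 5877 (17.1%) were called higher and 6710 (19.5%) lower. The share called higher was thus close in both sets, and the share called lower was smaller among members. The clusters tested were not bound by the 1.5-fold limit as the members were, so the shares are not alike and nothing is read from them. The test and threshold were those used for HL. Called changes were bounded by the rule and ran from 0.19 to 0.55 on the log2 scale for the higher members and from −0.61 to −0.24 for the lower ones. Without the expression filter 27 were called higher, and with DESeq2 64. Leaving out a library lowered the calls over all clusters too, from 12587 to between 10316 and 11210. Without LL replicates 1, 2 and 3 in turn, 35, 40 and 39 members were higher and 18, 12 and 9 lower. Without ML replicates 1, 2 and 3 in turn, 35, 30 and 55 were higher and 11, 10 and 11 lower. The member with the highest ML over LL had 13.6, 14.3 and 11.9 CPM in LL, 21.2, 19.4 and 18.9 CPM in ML and 4.69, 3.35 and 4.16 CPM in HL. The member with the lowest had 8.53, 8.58 and 8.22 CPM in LL, 4.75, 5.66 and 6.60 CPM in ML and 1.62, 1.90 and 1.28 CPM in HL, with no overlap between any 2 groups.

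Members had a longer median length than the steady clusters, but members with whole counts did not. The implied length of all members, read from the ratio of count to FPKM, had a median of 1623 bases with quartiles of 994 and 2692. Over the steady clusters the median was 1375 with quartiles of 849 and 2160. The 127 members with whole counts in all 9 libraries had a median of 1209 bases, and the 186 with non-whole counts one of 1978. Steady clusters were not split in this way, and the part of divided reads in the lengths was not tested. Clusters of at least 2500 bases made up 28.1% of the members and 18.2% of the steady clusters, so that 4.81% of steady clusters of this length were members, against 2.23% of those of 500 to 1000 bases. The longest member, of 11438 bases, had 52.3, 62.2 and 54.4 CPM in LL, 61.6, 64.0 and 49.6 CPM in ML and 13.1, 8.37 and 10.5 CPM in HL. The member with the shortest implied length, 52 bases, had 8.94, 9.62 and 9.71 CPM in LL. It had 6.98, 13.1 and 10.4 CPM in ML and 3.23, 2.60 and 2.29 CPM in HL.

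Length also moved with the groups over the whole library, since clusters of at least 2500 bases held 19.7% ± 0.68 of the tested counts in LL, 21.9% ± 0.58 in ML and 18.1% ± 0.20 in HL (SD over 3 libraries). When each library's trend over length was removed before the rule was applied, 168 clusters remained, of which 154 were members. This setting was added after the data were seen, and the part of length in the loss was not tested. The fourth member by counts, of 452 bases and whole counts, lies at the short end.

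Weakly expressed clusters were the most frequent among members. Of the steady clusters with a mean of LL and ML under 10 CPM, 5.08% were members (121 of 2381), and of those at 10 to 20 CPM 3.69%. From 20 CPM upward the share was 1.93%, 1.86% and 1.94% for 20 to 50, 50 to 100 and at least 100 CPM. With a floor of 10 CPM the rule gave 175 clusters. The rule itself used the LL and ML means, so the shares by level are a description. Counting error is larger at low counts, and its part in these shares was not tested.

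**Figure D5:**
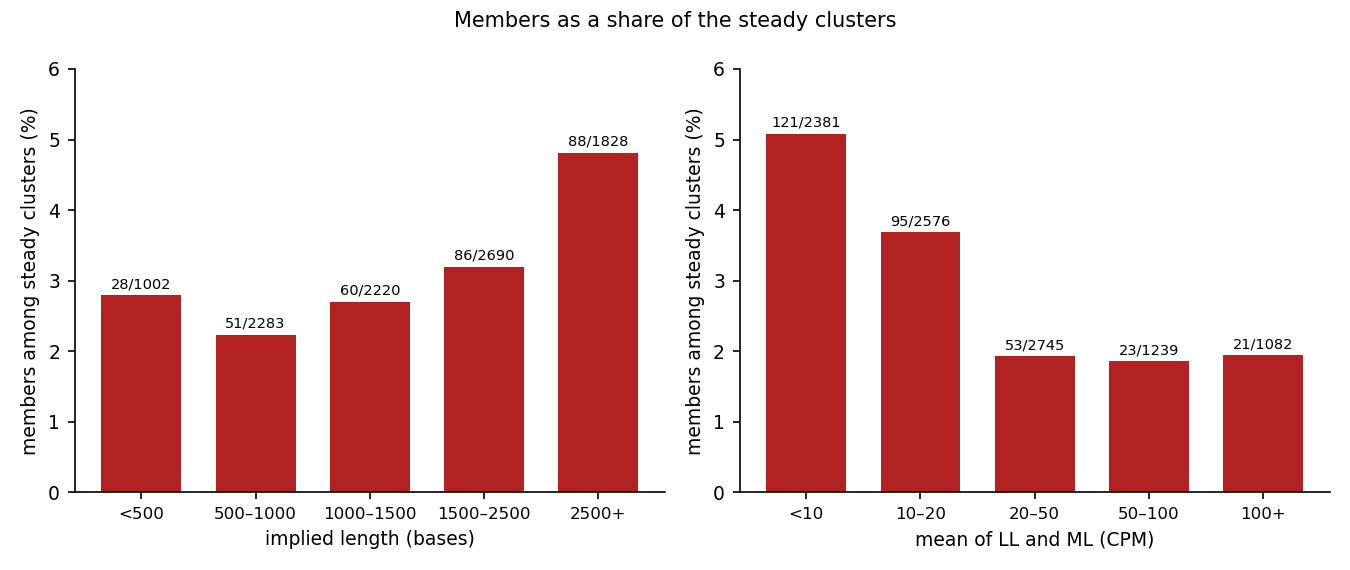
Members as a percentage of the steady clusters, by implied length (left, bases) and by the mean of LL and ML (right, CPM), with the number of members over the number of steady clusters above each bar. The share is highest at 2500 bases or more (4.81%) and under 10 CPM (5.08%).

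Starting from LL alone, 618 clusters of at least 5 CPM in LL had an HL mean of at most 1/3 of the LL mean and all HL libraries below all LL libraries. In 375 of these ML was within 1.5-fold of LL, in 156 it was at least 1.5-fold above and in 87 at least 1.5-fold below. The 313 members are among the 375. The other 62 failed because HL was above 1/3 of ML (51), because ML was under 5 CPM (20) or because an HL library reached an ML library (4), some for more than 1 reason. The opposite pattern, an HL mean at least 3-fold above both other means with all HL libraries above the others, was met by 20 steady clusters. With the floor of 5 CPM set on HL instead there were 117. These counts follow the CPM scale, on which HL levels are read lower than with TMM.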

How the data were processed

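RNA-seq libraries of 9 algal samples (3 each at 150, 600 and 1500 µmol photons m⁻² s⁻¹) were grouped by their titles. Per the file headers, the authors deposited for each of 76875 clusters an estimated count, not scaled to depth or length and with decimals, and an FPKM value that the authors divided by length and depth. DESeq 1.10.1 is listed, per the submitters' processing notes. No assembler, aligner, counting program or build is named in those notes or the labels. Totals per library were 17778225 to 18914255 counts for LL, 18451243 to 19535140 for ML, and between 18799637 and 19643714 for HL.

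The members, the readouts and the tests were chosen with earlier results of these data known. CPM was computed from library totals with pandas 2.3.3 in Python 3.11.15. The estimated counts, rounded to integers, were fitted with edgeR 4.0.16 in R 4.3.3 (default expression filter, TMM factors, robust quasi-likelihood, group as the only term, all 9 libraries, 6 residual degrees of freedom), and p-values were adjusted by Benjamini-Hochberg over 34377 clusters. Standard errors of log2 fold changes are the fold change over the square root of F. The fit and the rule were also run on simulated whole counts. These did not hold reads divided among similar clusters, so nothing is read from them about the members. Implied length is the median over libraries of count against FPKM at an FPKM of at least 0.5, was available for all 313 members, and may be an effective length. The leading number of the identifier, whose meaning is not given, was 5009 for all 313 members and all 10023 steady clusters. Floors and counting errors cover counting only.

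Identifiers were to be printed for the member with the most counts and, among members of at least 10 CPM in LL and ML, for the one with the lowest remaining level (ties went to the higher level). Other members were taken by rank of counts, remaining level, length and ML over LL. The members that missed a call, the member with 1 high HL library and the order of libraries within LL were singled out after their values were seen. Alternatives were RLE factors, library totals, no expression filter, DESeq2 1.42.0, limma 3.58.1 on log2(FPKM + 1) and log2(FPKM + 0.1), a replicate block, each library left out, and other limits of the rule.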

Additional observations from a re-analysis of the deposited data

How the results depend on the processing

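The number of members moved by over 1.5 times with TMM or RLE scaling, either floor, either limit on HL, the narrower limit between LL and ML, whole counts alone and the length trend removed; it stayed within 1.5 times on FPKM and with the wider limit. It was 179 with TMM-scaled and 167 with RLE-scaled CPM, 320 on the deposited FPKM, 175 with a floor of 10 CPM, 541 with a floor of 2 CPM, 1143 with HL at most 1/2, 94 with HL at most 1/4, 198 with a narrower and 433 with a wider limit between LL and ML, 127 among clusters with whole counts, and 168 with the length trend removed, an alternative chosen after seeing the data. Leaving out each library gave 274 to 380 members.

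For the 313 members, calls of lower in HL numbered 292 to 313 against LL and 295 to 313 against ML over 7 alternatives. Leaving out a library gave 296 to 307 and 302 to 308. The median log2 fold change ran from −1.84 to −1.51 against LL and from −2.07 to −1.67 against ML. Members called higher in ML than in LL numbered from 27 without the expression filter to 64 with DESeq2 over the 7 alternatives. Leaving out an LL or ML library gave 30 to 55. Those called lower numbered 13 to 20 over the alternatives and 9 to 18 leaving out a library. The cause was not tested.

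Same-numbered libraries did not deviate together (correlations −0.04 to 0.01 across clusters). Such correlations cannot tell whether libraries of the same number were handled as pairs. With a replicate block 304 members were called lower in HL than in LL and 307 lower than in ML, while for ML against LL 45 members were called higher and 15 lower.

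The median member had 57.1 counts per HL library. Counting error alone, at a median of 13.2% over HL libraries, limits how precisely the remaining level is known.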
